A study of Mus musculus with 12 samples.

Results

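The NF-kB family and its inhibitors were described here by 10 genes, taken by symbol from the 49585 genes counted in each library. These were the DNA-binding subunits *Nfkb1*, *Nfkb2*, *Rel*, *Rela* and *Relb*, the cytoplasmic inhibitor *Nfkbia*, the nuclear IkB proteins *Nfkbiz*, *Nfkbid* and *Bcl3*, and *Tnfaip3*, which curbs signalling upstream of NF-kB. All 10 passed the filter on low counts in total RNA and in ribosome protected fragments (RPF). The libraries came from mouse CD4 T cells stimulated for 20 h on plates coated with antibodies to CD3 (5 ug/ml) and CD28 (1 ug/ml), with 3 control (*Rnmt* fl/fl CD4cre -) and 3 *Rnmt* cKO (*Rnmt* fl/fl CD4cre +) libraries of total cytoplasmic RNA and as many of RPF. Mice of both groups were female, carried *Rnmt* alleles with exon 3 floxed on a C57B6/J background and differed by the CD4-Cre transgene. This transgene is active from the double positive stage of thymic development, so *Rnmt* had been deleted before stimulation. The study allows that residual RNMT protein remained. Naive CD4 T cells had been enriched from lymph nodes with a kit and all cells received cycloheximide (0.1 mg/ml, 1 min) before lysis. Reads counted on genes ranged from 15079703 to 22629563 per total RNA library and from 4123271 to 10661356 per RPF library.

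NF-kB subunits act as dimers. In resting cells most dimers are held in the cytoplasm by IkB proteins, and in T cells the antigen receptor and CD28 lead through PKC theta to the IkB kinases, which mark IkB alpha for destruction and free the dimers to enter the nucleus. The dimers then induce cytokine, survival and activation genes together with several of their own subunits and inhibitors, so that the pathway holds itself in check. *Nfkb1* and *Nfkb2* encode precursors that are processed into DNA-binding subunits without an activation domain, whereas *Rel*, *Rela* and *Relb* encode subunits with one. RNMT methylates the guanosine cap of mRNA, which stabilises mRNA and allows its translation.

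This self-regulation is carried by kB sites in promoters, so the sites found near the starts of the 10 genes are shown first. RefSeq start sites (GRCm38.p6) were at hand for 7 of the 10 genes (*Nfkb2*, *Rel*, *Rela*, *Nfkbia*, *Nfkbid*, *Tnfaip3* and *Bcl3*). The kB consensus motif, of 10 bases, was searched on both strands of the 250 bases before each start, and overlapping matches were taken as 1 site. It was found for 5 of the 7 genes (71.4%), against 8.23% of the 27025 genes with a RefSeq start, and 3 of the 7 (*Nfkb2*, *Nfkbid* and *Tnfaip3*) had a window with at least 2 sites, against 0.455%. Each site of the most upstream start with a match is given below as 30 bases on the strand of the gene, 5′ to 3′, with the match in capitals.
*Nfkb2*, chr19:46304688-46304717 (+), match 39 bases before the start: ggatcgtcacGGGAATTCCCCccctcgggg
*Nfkb2*, chr19:46304716-46304745 (+), match 11 bases before the start: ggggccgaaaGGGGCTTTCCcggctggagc
*Rel*, chr11:23771042-23771071 (-), match 92 bases before the start: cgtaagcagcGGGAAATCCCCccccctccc
*Nfkbia*, chr12:55492657-55492686 (-), match 29 bases before the start: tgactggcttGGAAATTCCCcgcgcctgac
*Tnfaip3*, chr10:19015516-19015545 (-), match 125 bases before the start: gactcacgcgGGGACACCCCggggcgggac
*Tnfaip3*, chr10:19015403-19015432 (-), match 12 bases before the start: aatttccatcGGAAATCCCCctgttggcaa
*Nfkbid*, chr7:30422170-30422199 (+), match 226 bases before the start: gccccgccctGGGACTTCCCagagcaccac
*Nfkbid*, chr7:30422215-30422244 (+), match 181 bases before the start: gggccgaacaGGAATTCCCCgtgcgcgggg
The capitals run over 11 bases where matches overlap, as in the first *Nfkb2* site and the *Rel* site. The sites of *Nfkbid* lay before the second of its 3 starts, and the other 2 starts of *Nfkb2* had 1 site each, which are not shown. The windows of *Rela* and *Bcl3* held no match. A match in these letters is a description of the sequence, and binding was not measured.

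The deleted gene was examined first. *Rnmt* was at 95.5, 94.1 and 94.3 CPM (read count normalised to library size) in total RNA of the controls and at 29.3, 32.4 and 30.4 CPM in *Rnmt* cKO cells, so every library matched its label. In RPF it was at 104, 87.9 and 98.9 CPM in controls and at 10.5, 10.4 and 9.60 CPM in *Rnmt* cKO cells. The deletion removes the floxed exon alone, whereas these counts cover the whole gene. The log2 fold change of *Rnmt* cKO over control was -1.62 ± 0.06 (SE) in total RNA and -3.24 ± 0.10 in RPF (edgeR quasi-likelihood test, adjusted p = 5.8e-06 and 4.8e-06). CPM is a share of the reads on tested genes after TMM scaling. Every change below is thus relative to the other mRNAs and not an amount per cell. The study measured less mRNA per activated *Rnmt* cKO cell than per control cell. It therefore held that rises are overestimated and falls underestimated in the RNA data, and that footprints give relative differences in translation. In bulk samples fewer cells of a type and less RNA per cell cannot be told apart.

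The markers of CD4 T cells were abundant in every library, with a summed level in total RNA of 3677, 3575 and 3398 CPM in controls and 2601, 2547 and 2914 CPM in *Rnmt* cKO cells. Of the 8 markers 5 fell in total RNA (*Cd3d*, *Cd3g*, *Trac*, *Lck* and *Cd5*), whereas *Cd28*, the most abundant, was at 1096 and 1088 CPM on average. In RPF the same 5 fell, and the 8 summed to 7045, 6333 and 6599 CPM in controls and to 5135, 4592 and 5318 CPM in *Rnmt* cKO cells, with *Cd5* the most abundant. The 8 B cell markers summed to 10.5, 6.72 and 38.3 CPM in controls and to 99.9, 122 and 21.6 CPM in *Rnmt* cKO cells, with *Ms4a1* the most abundant, none at 0 in all libraries, and 4 of 7 tested higher in *Rnmt* cKO cells. *Rnmt* cKO replicate 3 thus lay within the range of the controls for B cell markers, and control replicate 3 was the highest of the controls. The corresponding RPF sums were 14.1, 9.04 and 47.2 CPM and 155, 173 and 28.5 CPM, with 5 of 8 markers higher. The 3 markers of regulatory T cells summed to 15.7, 18.1 and 17.2 CPM in controls and to 32.2, 31.7 and 30.9 CPM in *Rnmt* cKO cells in total RNA, where *Ikzf2*, the most abundant, and *Nrp1* both rose, while *Foxp3* averaged 0.799 and 0.544 CPM and was below the filter. In RPF these 3 summed to 16.0, 13.7 and 17.7 CPM and to 26.9, 24.2 and 26.3 CPM, with *Ikzf2* and *Nrp1* again higher. In total RNA the 2 CD8 T cell markers summed to between 9.85 and 41.7 CPM, led by *Cd8a*, and neither passed the test. The 4 NK cell markers (at most 4.55 CPM, led by *Klrk1*, the 1 tested and higher in *Rnmt* cKO cells) and the 9 myeloid and dendritic cell markers (at most 3.19 CPM, led by *Cd68*, with *Clec9a* at 0 throughout) were scarce. In RPF the 1 NK cell marker tested and the 2 CD8 T cell markers did not pass, and 1 of 2 myeloid markers tested, *Fcer1g*, rose. The part of B cells, regulatory T cells, NK cells and the lower CD4 T cell markers in the results below was not tested.

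Most of the NF-kB genes rose in total RNA of *Rnmt* cKO cells. Of the 10, 8 were increased, none was decreased and 2, *Rela* and *Nfkbid*, did not pass the test (edgeR quasi-likelihood test, Benjamini-Hochberg adjusted over 11519 genes, threshold 0.05). No member was lower at an unadjusted p under 0.05, by DESeq2 or by edgeR's exact test. Of all genes tested, 54.2% passed, with 26.3% increased and 28% decreased. The median log2 fold change of the 10 genes was 1.00, against -0.0037 for all genes, and 5 of them (*Nfkb2*, *Rel*, *Nfkbia*, *Tnfaip3* and *Bcl3*) rose by more than 2-fold, as did 5.91% of all genes tested. With *Rnmt* cKO replicates 1 and 2 left out, the libraries highest in B cell markers, the same test gave 8 increased genes, where 19.7% of all genes were increased and 20.8% decreased, 40.5% in all. This comparison was added after the data were seen, it rests on a single *Rnmt* cKO library that is assumed to vary like the others, and the part of B cells was not tested.

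**Figure D1:**
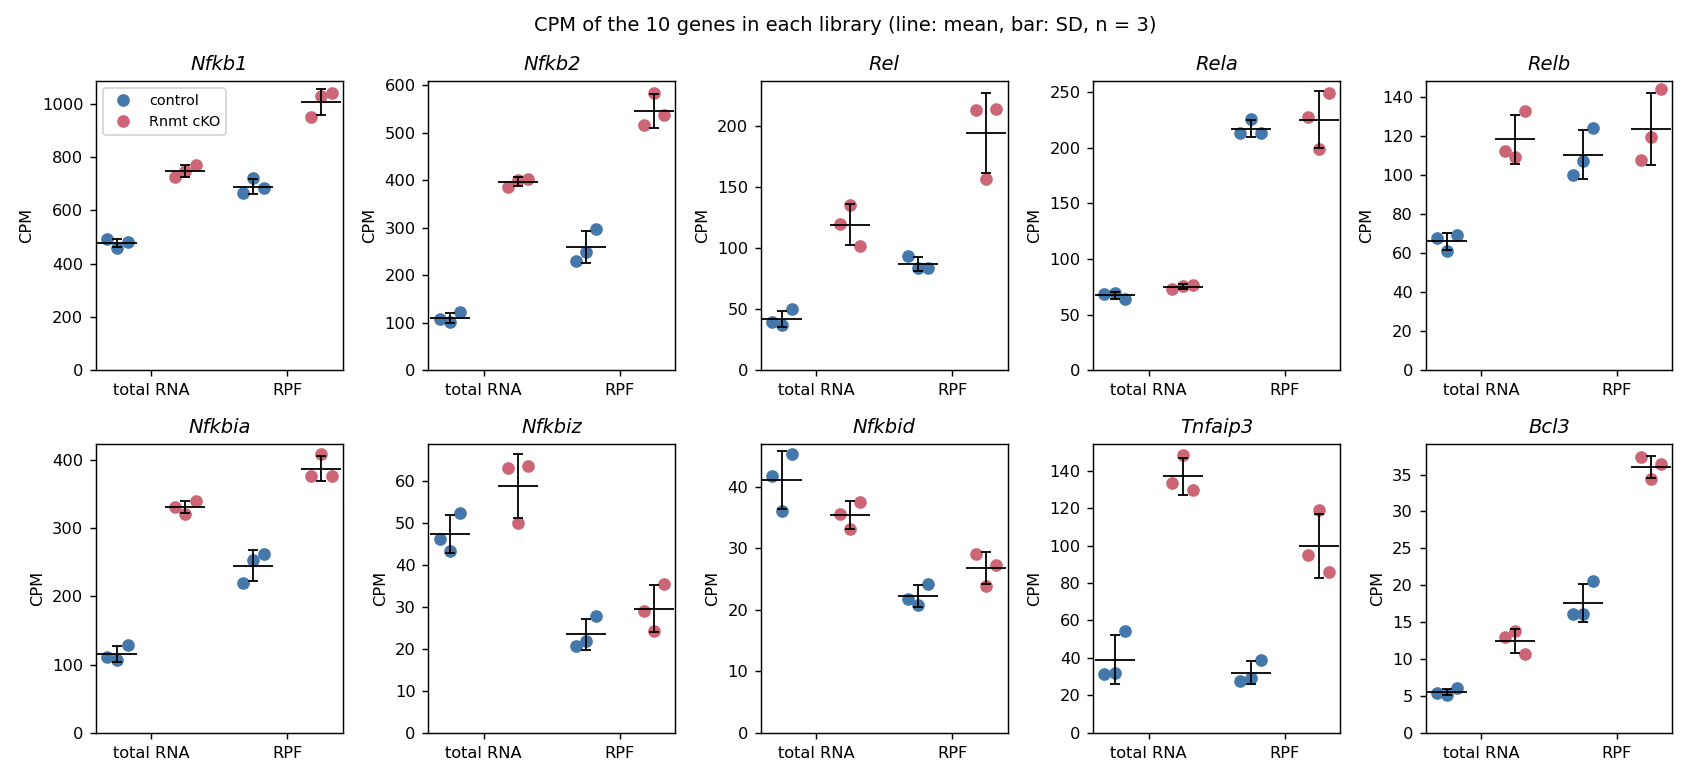
CPM (y axis, linear from 0) of each of the 10 genes in the 3 control (blue) and 3 *Rnmt* cKO (red) libraries of total RNA and RPF, with points for libraries 1 to 3 from left to right, lines for means and bars for SD. *Nfkb1*, *Nfkb2*, *Rel*, *Nfkbia*, *Tnfaip3* and *Bcl3* lie apart by genotype in both kinds of library, whereas *Relb* does so in total RNA and overlaps in RPF.

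Of the subunits, *Nfkb2* had the largest log2 fold change in total RNA and *Rel* the largest in RPF. *Nfkb2*, whose precursor is processed in the alternative pathway, was at 107, 101 and 122 CPM in total RNA of controls and at 386, 402 and 403 CPM in *Rnmt* cKO cells. The groups lay far apart. The mean rose 3.60-fold, from 110.2 ± 10.7 to 397 ± 9.63 CPM (SD, n = 3), with a log2 fold change of 1.85 ± 0.08 (SE, edgeR adjusted p = 6.1e-06). In RPF, *Nfkb2* was at 231, 249.8 and 297 CPM in controls and at 516, 585 and 538 CPM in *Rnmt* cKO cells, with a log2 fold change of 1.08 ± 0.10 (edgeR adjusted p = 2.3e-04). The gene lies on chr19:46304320-46312385 (+, GRCm38) and overlaps *Psd* and AC114539.1 on the other strand, where at most 0.735% of its reads were counted in any library.

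*Rel*, the subunit c-*Rel* that is largely confined to lymphoid and myeloid cells and is required for T cell cytokine production, followed. It was at 39.2, 37.1 and 49.8 CPM in control total RNA and at 119, 135 and 102 CPM in *Rnmt* cKO total RNA, with the lowest *Rnmt* cKO value still more than the highest control. The log2 fold change was 1.50 ± 0.14 (edgeR adjusted p = 8.5e-05). In RPF the values were 93.8, 83.5 and 83.2 CPM and 213, 156 and 213 CPM (log2 fold change 1.16 ± 0.12, edgeR adjusted p = 4.6e-04), and *Rnmt* cKO replicate 2 was the lowest of its group there although it was the highest in total RNA.

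*Nfkb1*, which encodes the precursor and DNA-binding subunit of the canonical heterodimer, was the most abundant of the 10 per exon length in control total RNA and rose less. Its total RNA values were 493, 459.9 and 480.4 CPM in controls and 725, 749 and 770.4 CPM in *Rnmt* cKO cells, a mean rise of 1.57-fold (log2 fold change 0.65 ± 0.06, edgeR adjusted p = 8.4e-05). Its RPF values rose to a like extent, from 664, 720.5 and 685 CPM to 951, 1031 and 1040.2 CPM (log2 fold change 0.55 ± 0.07, edgeR adjusted p = 8.8e-04). The groups did not overlap in either kind of library. A same-strand transcript model, *Gm43430*, overlaps the gene on chromosome 3 and could share its reads.

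*Relb*, the partner of the processed *Nfkb2* product, rose in total RNA and not detectably in RPF. Its total RNA values were 67.9, 61.3 and 69.5 CPM in controls and 113, 109.5 and 133 CPM in *Rnmt* cKO cells (log2 fold change 0.84 ± 0.09, edgeR adjusted p = 1.7e-04). In RPF it was at 100.1, 107 and 124 CPM in controls and at 108, 119.5 and 144 CPM in *Rnmt* cKO cells, so that the groups overlapped. The log2 fold change there was 0.16 with a 95% interval of -0.12 to 0.43 (edgeR adjusted p = 0.35). This RPF change ranged from 0.045 to 0.25 with a library left out, and its highest value under any alternative was 0.38.

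*Rela*, the activating subunit of the canonical heterodimer, hardly moved. It was at 68.3, 69.6 and 63.8 CPM in control total RNA and at 73.0, 75.5 and 77.0 CPM in *Rnmt* cKO total RNA. Although these values did not overlap, the difference was 0.16 on the log2 scale (95% interval 0.02 to 0.30) and fell just short of the threshold (edgeR adjusted p = 0.051), which it passed among genes with at least 10 counts in every library (edgeR adjusted p = 0.047). In RPF the values were 213, 226 and 213 CPM against 227, 198.5 and 249.5 CPM (log2 fold change 0.05, 95% interval -0.15 to 0.24).

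The inhibitor *Nfkbia*, which encodes IkB alpha, rose beside the subunits. It was at 110.6, 107 and 129 CPM in total RNA of controls and at 332, 321 and 340.3 CPM in *Rnmt* cKO cells, with no overlap and little spread within either group. The mean rose 2.86-fold, from 116 ± 11.9 to 331 ± 9.49 CPM (SD, n = 3), a log2 fold change of 1.52 ± 0.08 (SE, edgeR adjusted p = 1.1e-05). In RPF it rose from 220.0, 254 and 262 CPM to 376, 409 and 377 CPM, a smaller log2 fold change of 0.66 ± 0.08 (edgeR adjusted p = 7.5e-04).

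*Tnfaip3*, a ubiquitin-editing enzyme that limits the steps above the IkB kinases, rose about as much as *Nfkb2* in total RNA but from control values that differed among themselves. In total RNA it was at 31.2, 31.7 and 54.3 CPM in controls, where replicate 3 stood above the others, and at 133, 148 and 129.5 CPM in *Rnmt* cKO cells. Control replicate 3 was also the control highest in B cell markers, and the part of these cells in its value was not tested. The log2 fold change was 1.81 ± 0.20 (edgeR adjusted p = 2.1e-04). RPF rose with it, from 27.7, 29.5 and 39.0 CPM to 94.9, 119 and 85.6 CPM (log2 fold change 1.64 ± 0.16, edgeR adjusted p = 3.0e-04).

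Among the nuclear IkB proteins, which bind dimers on DNA and modulate transcription, *Bcl3* alone rose by more than 2-fold. *Bcl3*, which acts with dimers of the processed *Nfkb1* and *Nfkb2* products, had the lowest level of the 10 per exon length in total RNA. It was at 5.46, 5.19 and 6.04 CPM in controls and 13.0, 13.8 and 10.7 CPM in *Rnmt* cKO cells (log2 fold change 1.16 ± 0.13, edgeR adjusted p = 2.5e-04). Its RPF values of 16.2, 16.1 and 20.6 CPM rose to 37.3, 34.4 and 36.4 CPM (log2 fold change 1.03 ± 0.12, edgeR adjusted p = 7.6e-04). These values rested on 98 to 352 reads per library. The antisense genes *Gm16175* and *Gm16174* overlap *Bcl3*, and at most 1.71% of reads came from the other strand in any library.

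*Nfkbiz*, the nuclear IkB zeta, showed overlapping groups. It was at 46.2, 43.4 and 52.3 CPM in control total RNA and at 62.9, 49.8 and 63.4 CPM in *Rnmt* cKO total RNA (log2 fold change 0.31 ± 0.11, edgeR adjusted p = 0.045). This call was lost without control replicate 1 (edgeR adjusted p = 0.13), control replicate 2 (0.15), *Rnmt* cKO replicate 1 (0.13) or *Rnmt* cKO replicate 3 (0.098). In RPF, at 20.7, 21.9 and 27.7 CPM against 29.0, 24.2 and 35.4 CPM, the difference did not pass (edgeR adjusted p = 0.18). *Nfkbid*, a nuclear IkB that takes part in regulatory T cell development, was the only member with a lower mean in total RNA, at 41.7, 36.1 and 45.3 CPM in controls and 35.6, 33.1 and 37.5 CPM in *Rnmt* cKO cells. This difference of -0.21 on the log2 scale (95% interval -0.44 to 0.01) did not pass (edgeR adjusted p = 0.098), and did without control replicate 2 (-0.30, edgeR adjusted p = 0.034). In RPF the mean of *Nfkbid* was the higher in *Rnmt* cKO cells, at 21.8, 20.8 and 24.1 CPM against 29.0, 23.9 and 27.3 CPM (log2 fold change 0.26, 95% interval -0.00 to 0.53, edgeR adjusted p = 0.12).

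In RPF as a whole, 6 of the 10 genes were increased (*Nfkb1*, *Nfkb2*, *Rel*, *Nfkbia*, *Tnfaip3* and *Bcl3*), and by the edgeR quasi-likelihood test, at an unadjusted p under 0.05, by DESeq2 and by edgeR's exact test none was decreased. Of 11428 genes tested, 14.1% were increased and 15.7% decreased, 29.8% in all. The median log2 fold change of the 10 genes was 0.60, against 0.0080 for all genes, and 4 (*Nfkb2*, *Rel*, *Tnfaip3* and *Bcl3*) rose by more than 2-fold, as did 3.97% of all genes tested. The count of 6 was the same with *Rnmt* cKO replicate 3 alone against the controls, where 4.36% of all genes were increased and 4.75% decreased, 9.1% in all.

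Translation efficiency (TE), the ratio of RPF to total RNA, was compared next, to ask whether ribosome occupancy followed mRNA abundance. TE fell for 3 of the 10 genes (*Nfkb2*, *Relb* and *Nfkbia*) and rose for none by the edgeR interaction test or by DESeq2, with 1 (*Nfkbid*) higher at an unadjusted p under 0.05. Neither test paired the libraries. With total RNA and RPF libraries of the same genotype and number paired, the same 3 fell and *Nfkbid* rose (edgeR adjusted p = 0.028). Of 10668 genes tested, 6.57% fell and 3.24% rose, 9.81% in all. The median log2 change in TE was -0.14 for the 10 genes and 0.035 for all genes. The 3 genes with a lower TE all rose in total RNA, which is the denominator of TE. Across all mRNAs, the study reported increased total RNA for most of those with decreased TE, so this pattern is not particular to NF-kB genes.

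**Figure D2:**
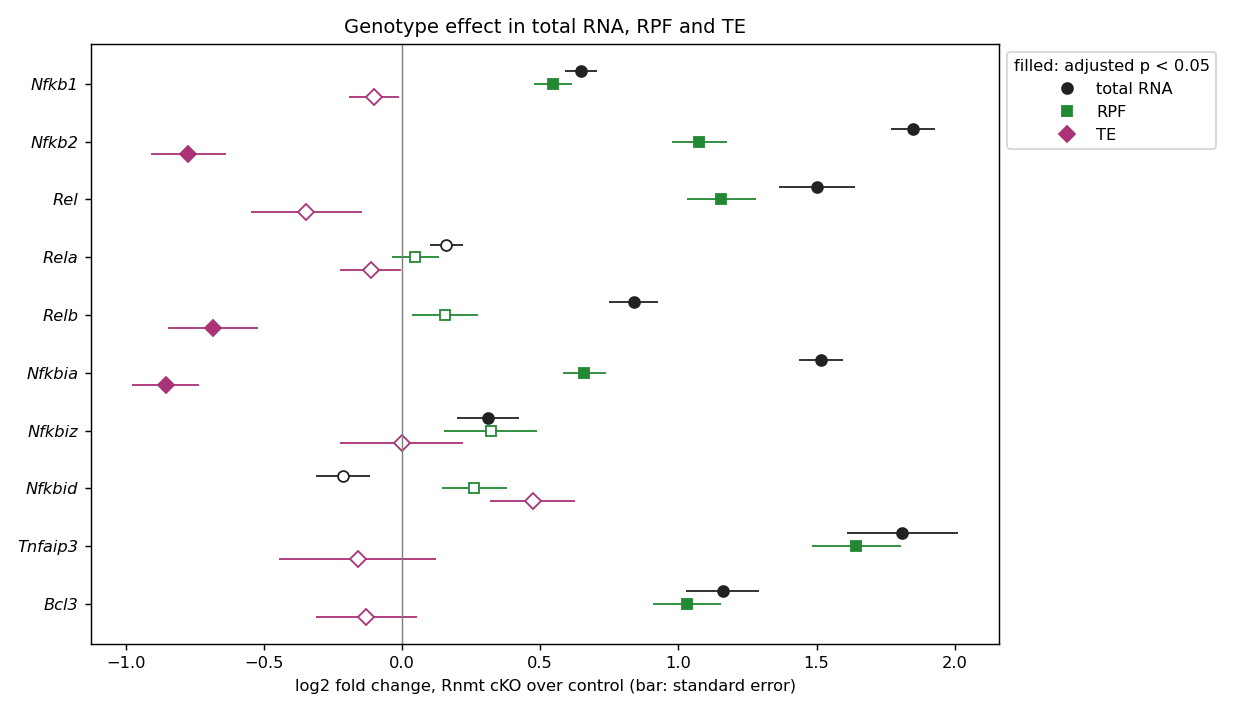
Log2 fold change of *Rnmt* cKO over control (x axis, bars for standard errors) of each gene in total RNA (black circles), RPF (green squares) and TE (purple diamonds), with filled symbols for an adjusted p under 0.05. The RPF change of *Nfkb2*, *Relb* and *Nfkbia* lies well to the left of the total RNA change, while those of *Nfkb1*, *Nfkbiz* and *Bcl3* nearly coincide.

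*Nfkbia* showed the largest fall in TE of the 10. Its ratio of RPF to total RNA CPM was 1.99, 2.37 and 2.02 in controls and 1.13, 1.27 and 1.11 in *Rnmt* cKO cells, with a log2 change of -0.86 ± 0.12 (edgeR adjusted p = 5.7e-04). The 2.86-fold rise of its mRNA was thus accompanied by a 1.58-fold rise of its footprints. For *Nfkb2* the ratio was 2.15, 2.47 and 2.43 in controls and 1.34, 1.46 and 1.33 in *Rnmt* cKO cells, with a log2 change of -0.77 ± 0.14 (edgeR adjusted p = 0.0028). For *Relb* the ratio was 1.47, 1.75 and 1.79 in controls and 0.957, 1.09 and 1.08 in *Rnmt* cKO cells, with a log2 change of -0.68 ± 0.16 (edgeR adjusted p = 0.018). None of these ratios overlapped between groups, which is no added evidence for genes picked by their TE call. The *Relb* call was lost without control replicate 2 (edgeR adjusted p = 0.084), control replicate 3 (0.056) or *Rnmt* cKO replicate 1 (0.070). With *Rnmt* cKO replicate 3 alone against the controls, *Nfkbia* kept its call (log2 change -0.96, edgeR adjusted p = 0.023), and *Nfkb2* (-0.84, 0.062) and *Relb* (-0.64, 0.096) did not. In that comparison TE fell for 2.84% of all genes and rose for 0.784%, 3.63% in all.

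The other genes gave no call in TE without such pairs. *Nfkbid* had the only positive value of size, with ratios of 0.522, 0.576 and 0.533 in controls and 0.816, 0.723 and 0.728 in *Rnmt* cKO cells, which did not overlap. Its log2 change of 0.47 ± 0.15 did not pass (edgeR adjusted p = 0.072). The change did pass with a block for total RNA and RPF libraries of the same genotype and number (0.48, edgeR adjusted p = 0.028). This is called the block by animal below, although the labels name no animals. *Rel* had a log2 change of -0.35 with a 95% interval of -0.78 to 0.09, and its ratios overlapped, at 2.39, 2.25 and 1.67 in controls and 1.78, 1.15 and 2.09 in *Rnmt* cKO cells. The change of *Rel* ranged from -0.52 to -0.11 with a library left out, and its highest value under any alternative was -0.0064. The 95% intervals of the other genes were -0.30 to 0.09 for *Nfkb1*, -0.35 to 0.12 for *Rela*, -0.52 to 0.27 for *Bcl3*, -0.48 to 0.48 for *Nfkbiz* and -0.77 to 0.45 for *Tnfaip3*, so a change as large as that of *Relb* was outside the intervals of *Nfkb1*, *Rela*, *Bcl3* and *Nfkbiz* and not outside those of *Rel* and *Tnfaip3*.

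The order of the genes by level differed between genotypes. Divided by exon length, *Nfkb1* was the most abundant in control total RNA at 116 ± 4.0 CPM per kb (SD, n = 3), followed by *Nfkbia* at 73.4 ± 7.55, *Relb* at 30.0 ± 1.97, *Nfkb2* at 26.1 ± 2.54, *Rela* at 24.8 ± 1.12, *Nfkbid* at 18.4 ± 2.08, *Nfkbiz* at 11.4 ± 1.10, *Tnfaip3* at 8.50 ± 2.87, *Rel* at 5.63 ± 0.910 and *Bcl3* at 3.01 ± 0.234 CPM per kb. The ranges of *Relb* and *Nfkb2*, of *Nfkb2* and *Rela*, and of *Nfkbiz* and *Tnfaip3* overlapped. Divided by coding length, *Rel* (23.8 ± 3.85 CPM per kb) came before *Nfkbiz* (21.7 ± 2.09) and *Tnfaip3* (16.8 ± 5.67) in control total RNA, with overlapping ranges, and *Rela* (40.8 ± 1.85) came before *Nfkb2* (40.0 ± 3.90) and *Relb* (39.5 ± 2.61), again with overlap. In *Rnmt* cKO total RNA, *Nfkbia* came first at 209.8 ± 6.02 CPM per kb, above *Nfkb1* at 181 ± 5.52, *Nfkb2* at 94.1 ± 2.28 and *Relb* at 53.5 ± 5.78. *Tnfaip3* (29.8 ± 2.16) then overlapped *Rela* (27.7 ± 0.734), and *Rel* (15.9 ± 2.24), *Nfkbid* (15.9 ± 1.00) and *Nfkbiz* (14.2 ± 1.86) overlapped one another in turn, with *Bcl3* last at 6.74 ± 0.871 CPM per kb. Per coding length the order of *Rel* and *Rela* turned in *Rnmt* cKO cells, with *Rel* at 67.4 ± 9.48 CPM per kb, in overlap with *Relb* (70.6 ± 7.62) and *Tnfaip3* (58.9 ± 4.27), and *Rela* below it without overlap at 45.6 ± 1.21 CPM per kb. Footprints, divided by coding length, placed *Nfkbia* (260 ± 23.6) and *Nfkb1* (237 ± 9.85) first in controls with overlapping ranges and *Nfkbiz* last (10.7 ± 1.73 CPM per kb of coding sequence). In *Rnmt* cKO RPF the first 2 were *Nfkbia* (411 ± 19.6) and *Nfkb1* (346 ± 16.8), without overlap, and *Nfkbiz* was again last (13.5 ± 2.58).

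The make-up of the subunit pool was described from these levels. In total RNA, *Nfkb2* made up 12.4, 12.3 and 14.0% of the 5 subunit mRNAs per exon length in controls and 25.3, 25.6 and 24.9% in *Rnmt* cKO cells. *Nfkb1* went from 58.0, 57.6 and 56.3% to 48.7, 48.8 and 48.6%, and *Rela* from 12.2, 13.2 and 11.4% to 7.45, 7.47 and 7.37%. *Rel* was at 2.55, 2.56 and 3.22% in controls and at 4.43, 4.87 and 3.55% in *Rnmt* cKO cells. The share of *Rel* depended on the length used: per coding length, a setting added after the data were seen, it was 7.71 ± 1.01% in controls and 11.5 ± 1.67% in *Rnmt* cKO cells (SD, n = 3). By either length *Nfkb1*, *Nfkb2*, *Rel* and *Rela* did not overlap between genotypes, whereas *Relb* did, per exon length at 14.8 ± 0.452% and 14.4 ± 1.19% (SD, n = 3). In RPF per coding length, *Nfkb2* had 16.3 ± 1.66% in controls and 23.0 ± 1.89% in *Rnmt* cKO cells, *Rel* 8.54 ± 0.922% and 12.7 ± 2.04%, *Rela* 22.8 ± 0.901% and 15.8 ± 1.35%, *Relb* 11.4 ± 0.946% and 8.52 ± 0.885%, and *Nfkb1* 41.0 ± 1.29% and 40.0 ± 1.55%. These shares sum to 100% within a library, so that a higher share of one subunit lowers the others, and no test was made of them.

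The listed signalling genes, which hold both activators and inhibitors of NF-kB, did not move in 1 direction. Of 40 such genes, all tested in total RNA, 14 rose and 12 fell, beside 26.3% and 28% of all genes, with a median log2 fold change of 0.0098 against -0.0037 for all genes. Of 39 tested in RPF, 9 rose and 5 fell, beside 14.1% and 15.7% of all genes (median 0.061, against 0.0080). *Traf6*, the ubiquitin ligase that acts below MALT1, rose from 95.4 ± 1.74 to 207 ± 22.7 CPM in total RNA (SD, n = 3) and from 61.3 ± 5.24 to 141 ± 5.04 CPM in RPF, log2 fold changes of 1.12 ± 0.08 and 1.21 ± 0.08 (SE). The further inhibitors *Nfkbib* (IkB beta) and *Nfkbie* (IkB epsilon) rose by 1.05 ± 0.14 and 1.04 ± 0.13 on the log2 scale in total RNA and by 0.70 ± 0.08 and 1.09 ± 0.10 in RPF. In the other direction, *Prkcq*, which encodes PKC theta, fell from 158 ± 13.3 to 98.1 ± 5.22 CPM in total RNA and from 179 ± 2.37 to 103 ± 2.38 CPM in RPF, log2 fold changes of -0.69 ± 0.08 and -0.81 ± 0.06. *Tab1*, an activator of the kinase TAK1, changed by -0.95 ± 0.09 in total RNA and -0.77 ± 0.14 in RPF, and *Traf5*, an adaptor of TNF receptor family members, by -1.45 ± 0.10 and -0.91 ± 0.14. With *Rnmt* cKO replicate 3 alone against the controls, the RPF calls of *Tab1* (-0.71, edgeR adjusted p = 0.11) and *Traf5* (-0.82, 0.061) were lost. In TE, where 3.24% of all genes rose and 6.57% fell, 3 of 39 genes rose, namely *Nkiras2* (0.56 ± 0.16), *Traf3* (0.55 ± 0.16), which restrains the alternative pathway, and *Commd1* (0.51 ± 0.14), and *Tax1bp1*, a partner of *Tnfaip3*, fell (-0.45 ± 0.09). None of the 3 TE rises was called with library size in place of TMM, with no filter on low counts, or without control replicate 1, control replicate 2 or *Rnmt* cKO replicate 1, and neither they nor the fall of *Tax1bp1* with *Rnmt* cKO replicate 3 alone. Without control replicate 1 or *Rnmt* cKO replicate 1, the falls in total RNA numbered 7.

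Genes known as NF-kB targets were counted next. Of 37, 35 were tested in total RNA, where 24 rose and 2 fell, beside 26.3% and 28% of all genes. In RPF 34 were tested, of which 23 rose and 1 fell, beside 14.1% and 15.7% of all genes. Some of these passed the filter on low values with *Rnmt* cKO libraries above 1 CPM and at most 1 control library above it, namely *Csf2*, *Ier3* and *Cxcl10* in total RNA and *Ier3* and *Cxcl10* in RPF, so that a rise was the call open to them. Without them, 21 of 32 rose in total RNA and 21 of 32 in RPF. With *Rnmt* cKO replicate 3 alone against the controls, 20 targets rose in total RNA, beside 19.7% of all genes, and 14 in RPF, beside 4.36% of all genes (14.1% with all 3 libraries). *Nfkbib* and *Nfkbie* were also among the signalling genes, and the list was written with earlier results of these libraries known, so its direction is no independent evidence. *Ifng*, the cytokine interferon gamma, rose from 1.91, 1.43 and 3.07 CPM to 18.9, 23.8 and 18.0 CPM in total RNA, a log2 fold change of 3.24 ± 0.24, and by 3.84 ± 0.19 in RPF. *Gadd45b*, a stress-induced survival gene, rose from 18.7, 19.3 and 28.7 CPM to 149, 160.1 and 167 CPM in total RNA (2.84 ± 0.16) and by 3.26 ± 0.16 in RPF. *Csf2*, the cytokine GM-CSF, passed the test in total RNA on 2 or 3 reads per control library, at 0.106, 0.106 and 0.162 CPM in controls and 1.90, 4.18 and 1.68 CPM in *Rnmt* cKO cells, and no fold is given for it. *Ier3*, an immediate early gene, was at 0.188, 0.301 and 0.368 CPM in control RPF and at 1.99, 3.91 and 3.45 CPM in *Rnmt* cKO RPF, on 2 or 3 reads per control library, and no fold is given for it. The cytokine gene *Il2* rose by 1.48 in total RNA and by 1.83 in RPF on the log2 scale, the survival gene *Bcl2l1* by 2.14 and 1.98, and the adhesion gene *Icam1* by 2.53 and 2.38, each named here after its values were seen. *Bcl2a1b* and *Bcl2a1d*, which are near-identical copies, rose in RPF (0.80 and 1.54 on the log2 scale), and these too were named after their values were seen. In total RNA neither passed the test (-0.07, edgeR adjusted p = 0.75, and 0.88, edgeR adjusted p = 0.057), nor did either in TE (edgeR adjusted p = 0.061 and 0.41), and the division of reads between them is uncertain.

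*Cd40lg*, which encodes CD40 ligand, fell in total RNA, RPF and TE. It was at 35.5, 29.4 and 36.7 CPM in control total RNA and at 17.6, 17.8 and 21.0 CPM in *Rnmt* cKO total RNA, and at 166, 146 and 154 CPM against 51.3, 41.4 and 60.8 CPM in RPF, with no overlap in either. On the log2 scale *Cd40lg* changed by -0.85 ± 0.11 in total RNA, by -1.62 ± 0.13 in RPF and by -0.78 ± 0.18 for TE (edgeR adjusted p = 0.017). *Xiap*, an inhibitor of caspases, fell by 0.27 on the log2 scale in total RNA (SE 0.07). In TE 3 of 34 targets fell, beside 6.57% of all genes, and none rose by the edgeR test, with 2 higher at an unadjusted p under 0.05 and 1 by DESeq2. Beside *Cd40lg* these were *Ccr7*, the lymph node homing receptor (-0.41 ± 0.12), and *Slfn2*, a regulator of T cell quiescence (-0.37 ± 0.09), both of which rose in total RNA (0.65 ± 0.08 and 0.33 ± 0.06). The TE call of *Cd40lg* was lost without control replicate 1 (edgeR adjusted p = 0.075), control replicate 2 (0.061) or *Rnmt* cKO replicate 1 (0.056), that of *Slfn2* without any control replicate or *Rnmt* cKO replicate 3, and that of *Ccr7* with any library left out except *Rnmt* cKO replicate 3. With *Rnmt* cKO replicate 3 alone against the controls, *Cd40lg* (-0.68, edgeR adjusted p = 0.11) and *Ccr7* (-0.44, 0.21) were not called. The median of TE was -0.014 for the signalling genes, against 0.035 for all genes.

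**Figure D3:**
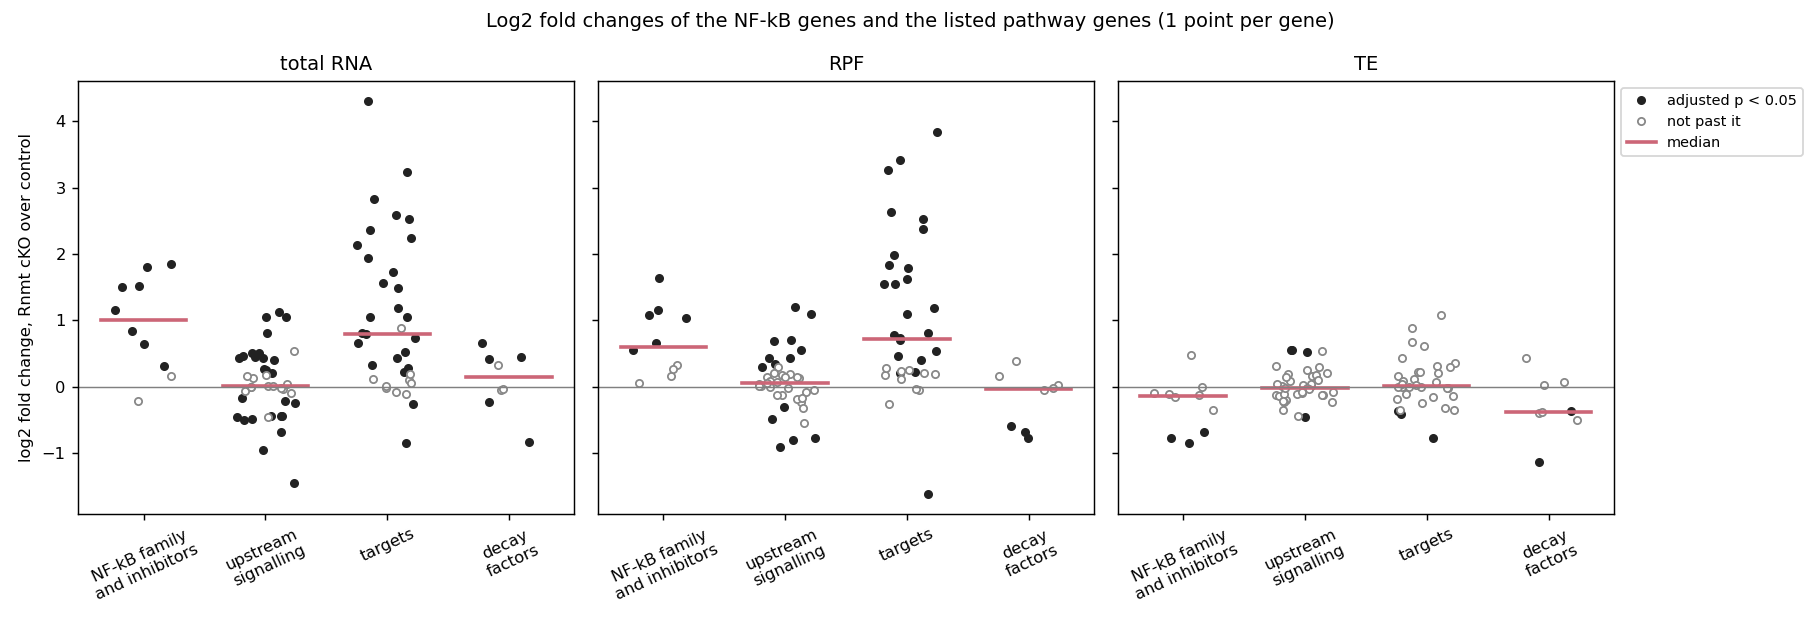
Log2 fold change of *Rnmt* cKO over control (y axis, 1 point per gene, sideways position without meaning) of the 10 NF-kB genes, the signalling genes, the targets and the mRNA decay factors in total RNA, RPF and TE, with filled points for an adjusted p under 0.05 and red lines for medians. The median of the NF-kB genes (1.00) lies above 0 in total RNA, while the signalling genes spread to both sides of 0.

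The mRNAs of several NF-kB genes are bound and degraded by the decay factors *Zc3h12a* (Regnase-1), its relative *Zc3h12d*, the Roquins *Rc3h1* and *Rc3h2* and the AU-rich element binding proteins *Zfp36*, *Zfp36l1* and *Zfp36l2*, and MALT1 cleaves some of these. Of these 8 genes, *Malt1* included, 3 rose and 2 fell in total RNA (median 0.14), beside 26.3% and 28% of all genes, whereas in RPF 3 fell (median -0.036), beside 15.7% of all genes, and by the edgeR test and DESeq2 none rose, with 1 higher at an unadjusted p under 0.05. *Zfp36l1* rose in total RNA from 92.9 ± 6.24 to 126 ± 23.3 CPM (SD, n = 3) and fell in RPF from 429 ± 36.2 to 267 ± 26.5 CPM, log2 fold changes of 0.45 ± 0.12 and -0.68 ± 0.09 (SE). Its TE changed by -1.13 ± 0.17 (edgeR adjusted p = 9.1e-04), more than that of any of the 10 NF-kB genes. *Zfp36l2* fell in total RNA (-0.23 ± 0.06), RPF (-0.60 ± 0.07) and TE (-0.37 ± 0.10). The TE call was lost with the replicate block (edgeR adjusted p = 0.058), the block by animal (0.053) or no filter on low counts (0.088). It was also lost without any one library except *Rnmt* cKO replicate 3. With *Rnmt* cKO replicate 3 alone against the controls, the TE change of *Zfp36l2* was -0.16. The *Zfp36l2* call in total RNA was lost with the replicate block (edgeR adjusted p = 0.054) or without control replicate 1 (0.065). That of *Zfp36l1* was lost without control replicate 1 (edgeR adjusted p = 0.063) or control replicate 2 (0.056). *Zc3h12d* fell alike in total RNA (-0.84 ± 0.07) and RPF (-0.77 ± 0.07). *Zc3h12a* and *Rc3h1* rose in total RNA by 0.66 ± 0.16 and 0.41 ± 0.10, calls that were lost with *Rnmt* cKO replicate 3 alone against the controls (0.39, edgeR adjusted p = 0.14, and 0.26, edgeR adjusted p = 0.086), and their RPF differences of 0.15 and 0.02 did not pass. In TE, 2 of the 8 fell (median -0.38), beside 6.57% of all genes, and none rose by the edgeR test or DESeq2, with 1 higher at an unadjusted p under 0.05.

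The genes that tracked each member most closely were sought among 6600 genes that were tested in TE and averaged 4 or more on the log2 CPM scale in both kinds of library, as the smallest root mean square difference over the 12 libraries of log2 CPM centred on the control mean. *Hsf2* was nearest to *Nfkb2* (difference 0.113), with log2 fold changes of 1.79 in total RNA and 1.24 in RPF. *Zfp51* was nearest to *Nfkbia* (0.0848, with 1.57 and 0.77) and *Tprgl* to *Relb* (0.0836, with 0.77 and 0.18), each with a smaller RPF than total RNA change. Closeness was measured over both kinds of library, so this likeness follows from how the genes were picked. *Thumpd3* was nearest to *Nfkb1* (0.0606), *Gtf2h5* to *Rela* (0.0554), *Cep83* to *Nfkbid* (0.0700) and *Whamm* to *Nfkbiz* (0.0940). Larger distances were found for *Dusp5* and *Bcl3* (0.126), *Mplkip* and *Rel* (0.194), and *Clic4* and *Tnfaip3* (0.203). Within the family, *Nfkb1* and *Relb* were each other's nearest member (0.240) and so were *Rela* and *Nfkbiz* (0.226), as were *Rel* and *Bcl3* (0.237), all farther apart than the nearest gene of each. The nearest genes came from 6600 candidates and the nearest members from this small family, so shorter distances to the former say nothing about the family. These distances describe 12 libraries that share genotype, and no test was made of them.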

How the data were processed

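Total cytoplasmic RNA and RPF libraries (Illumina TruSeq Ribo Profile kit) were sequenced from 3 control and 3 *Rnmt* cKO samples. Per the labels and the study's methods, the authors kept read 2, as read 1 had failed, trimmed adapters with Cutadapt, removed rRNA and tRNA reads with Bowtie, aligned to mm10 with GENCODE vM12 (basic) and deposited STAR 2.5.2b read counts per gene, without normalization. The authors also deposited a table of normalized signal values per library, used here to find the strand counted, with their own fold changes and p-values, which were not used. Counts of the reverse strand matched those values for 100% of the genes compared in each library, up to 1 factor and within 0.1%. The 4 totals in each file that name no gene were left out. Of all reads, 7.48 to 10.7% were unmapped, 24.3 to 30.1% multimapping, 5.34 to 8.21% outside genes and 1.17 to 1.32% ambiguous in total RNA. The same shares in RPF were 26.5 to 33.6%, 22.9 to 31.0%, 2.08 to 6.19% and 1.27 to 1.47%.

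Genes with CPM above 1 in at least 3 of 6 libraries were tested with the quasi-likelihood test of edgeR 4.0.16 (TMM) in R 4.3.3, in total RNA and RPF apart. For TE, all 12 libraries entered 1 model, scaled by TMM inside their kind, and the genotype-by-kind term was tested. The Benjamini-Hochberg adjustment covered all genes tested (threshold 0.05). The procedure was tested on simulated data. Standard errors are the log2 fold change divided by the root of F. At these depths a gene had a median standard error of 0.10 (total RNA), 0.12 (RPF) or 0.16 (TE). Log2 CPM used a prior count of 2. Positions and lengths came from GENCODE vM21 (GRCm38) and start sites from RefSeq. The labels number the samples without naming animals, so p-values measure the spread between these samples. Deviations of same-numbered control and *Rnmt* cKO libraries had r = -0.286, -0.222 and -0.524 in total RNA and 0.145, -0.0525 and -0.0659 in RPF, and were not taken as pairs, since not every r was above 0.1. For total RNA and RPF of the same genotype and number r was 0.113 to 0.378 in all 6 pairs, so these were taken as pairs and TE was also fitted with a block for each pair, called the block by animal. No 2 libraries of the same genotype and kind agreed within sampling noise.

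The 10 genes, the lists and the tests were chosen with earlier results of these data known. Besides the 10 genes and *Rnmt*, the text names, for each list and comparison, the 3 largest rises and falls among called genes without overlap between genotypes, the nearest gene of each member, markers, and genes said to be chosen after their values were seen. The alternatives tried were DESeq2 1.42.0, library size without TMM, edgeR's exact test, no filter, at least 10 counts in every library, counts of both strands, protein-coding genes alone, a replicate block, each library left out, coding in place of exon length, and, chosen after seeing the data, *Rnmt* cKO replicate 3 alone against the controls. Figures were drawn with matplotlib 3.10.9.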

Additional observations from a re-analysis of the deposited data

Results flagged for a closer look

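The genotype effect differed between library kinds for *Nfkb2* (RPF minus total RNA, log2, -0.77), *Relb* (-0.68) and *Nfkbia* (-0.86), by the interaction test of edgeR (adjusted p = 0.0028, 0.018 and 5.7e-04). Over the 3 genes, the ratio of RPF to total RNA was lower in each of the 3 *Rnmt* cKO libraries than in any control. The genes were flagged by that test, so this is no further evidence. Ratios without overlap were found for 4 of the 10 genes, with 3 called, and for 16 of 34 targets, with 3 called. Their share among all genes was not counted.

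Reads on the strand opposite to *Nfkbiz*, which the comparisons did not use, made up as much as 10% of the reads of the gene in RPF of *Rnmt* cKO replicate 3 (16 reads), with 7 and 5 reads in *Rnmt* cKO replicates 1 and 2 and 0, 0 and 4 reads in the controls. In total RNA at most 3 such reads were found in any library. These counts are too few for a comparison, and their origin was not tested.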

How the results depend on the processing

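The counts of NF-kB genes increased in total RNA (8) and RPF (6) stayed within 1.5 times under all alternatives run, as did the 3 TE falls except with *Rnmt* cKO replicate 3 alone, which left 1. With the replicate block, which changed no other call of a member, and with the block by animal, 1 NF-kB gene (*Nfkbid*) rose in TE. The replicate block gave 1 decay factor decreased in total RNA (2 without it), 1 increased in RPF (0 without it) and 1 decreased in TE (2 without it).

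With *Rnmt* cKO replicate 3 alone against the 3 controls, decay factors increased in total RNA were 1, signalling genes in RPF 5 increased and 1 decreased, targets increased in RPF 14, and in TE 0 signalling genes increased, 0 decreased, 1 target and 1 decay factor decreased. This setting has 1 *Rnmt* cKO sample of each kind. Signalling genes increased in TE were 0 by library size without TMM and 0 with no filter on low counts, where 1 target and 1 decay factor decreased. DESeq2 called 1 target increased in TE. Ranking by coding length kept the rank of 5 of the 10 genes in control total RNA.

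With each library left out in turn, NF-kB genes decreased in total RNA ranged from 0 to 1 (*Nfkbid*, without control replicate 2). Signalling genes decreased in total RNA ranged from 7 (without control replicate 1 or *Rnmt* cKO replicate 1) to 10, and those increased in TE from 0 (without control replicate 1, control replicate 2 or *Rnmt* cKO replicate 1) to 2. In TE, targets increased ranged from 0 to 1 and decreased from 0 to 2, and decay factors increased from 0 to 1 and decreased from 1 to 2. Decay factors decreased in total RNA ranged from 1 (without control replicate 1) to 2. The cause of these shifts was not tested, and fewer samples entered each fit.

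Some values near 0 changed sign without passing the test. With a library left out, the *Rela* RPF change ranged from -0.025 (without *Rnmt* cKO replicate 3) to 0.14. Its highest value under any alternative was 0.20. The *Nfkbiz* TE change was 0.015 with no filter, 0.060 with counts of both strands, 0.020 with the replicate block, 0.017 with the block by animal and 0.16 with *Rnmt* cKO replicate 3 alone, and ranged from -0.080 to 0.060 with a library left out. The *Bcl3* TE change was 0.087 with *Rnmt* cKO replicate 3 alone. Depth was lowest in RPF for *Nfkbid* (111 to 248 reads per library), *Nfkbiz* (144 to 248) and *Bcl3* (107 to 352), with TE standard errors of 0.15, 0.22 and 0.18, and the TE standard error was largest for *Tnfaip3* (0.28).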
